A study of Rattus norvegicus with 16 samples.

Results

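Signalling between neurons, fast or slow, depends on which receptor subunits each cell makes, and the genes described here encode such subunits: the receptors for glutamate, GABA, glycine, acetylcholine and serotonin. They were chosen by gene symbol, as every gene of the ionotropic and metabotropic receptor families of these 5 transmitters that had a transcript cluster of its own on the array, a rule that uses no measured value. Of 87 rat genes whose symbols fit the rule, 58 had such a cluster and make up the set, out of 14557 genes measured with 1 symbol; the other 29 are not analysed here. Where a gene had more than 1 cluster, the brighter was used, which concerned 2 genes, Grid1 and Grin2b.

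RNA came from myelinating cultures, in which spinal cord cells of E15.5 Sprague-Dawley rat embryos grow on a layer of astrocytes made from neurospheres of newborn (P1) striatum, so that neurons, oligodendrocyte lineage cells, astrocytes and microglia are measured as 1 mixture. The groups were humanFGF2 (recombinant human fibroblast growth factor 2), F2V2 (a form of FGF2 shortened at its N terminus), wtFGF2 and Control (untreated), with 4 arrays each. Ligands were added after 18 days in vitro (DIV 18) and the RNA of all groups was collected 24 h later, at DIV 19. What sets wtFGF2 apart from humanFGF2 is not explained in the labels, and its dose is not given, so comparisons with it are of labels and not of matched doses, whereas humanFGF2 and F2V2 were used at the same concentration. Sources differ on whether the 4 arrays are technical repeats or separate cultures, so the p-values rest on the spread among arrays, which may be technical.

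Glutamate opens AMPA, kainate and NMDA channels, each a tetramer of subunits, and also acts on slower metabotropic receptors that signal through G proteins. GABA-A receptors and glycine receptors are chloride channels built of 5 subunits that carry inhibition in the spinal cord, where motor neurons also release acetylcholine and descending axons release serotonin. Several of these receptors are also made by glia, among them Grm3 in rodent astrocytes, so a level in a mixed culture belongs to no single cell type.

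Values are on the log2 scale of the arrays, where a difference of 1 is a 2-fold change. A gene was called where the adjusted p was under 0.05 and the change at least 1.4-fold (limma, Benjamini-Hochberg adjustment over 15653 transcript clusters). A mean under a log2 value of 5 lies near the floor of the arrays, and a change into that range is a lower bound. The spread among the arrays of a group was small, with a median SD of 0.080 (humanFGF2) to 0.109 (F2V2) over the clusters tested. Any 2 arrays of a group correlated at 0.9957 or more over these clusters. Neurons were present in all groups, with 12 of 13 measured neuron markers above the floor.

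With humanFGF2, 17 of the 58 receptor genes were called lower than in Control and 1 higher, where 8.59% of all clusters tested were called lower and 10.5% higher. With F2V2, 7 were called lower and 1 higher than in Control, against 3.60% and 5.76% of all clusters. With wtFGF2, 10 were called lower and 0 higher than in Control by limma, against 5.92% and 7.06% of all clusters, and 3 were higher at an unadjusted p under 0.05. By adjusted p alone, 31 receptor genes were lower and 3 higher with humanFGF2 (21.2% and 24.4% of all clusters), 32 and 1 with F2V2 (16% and 17.1%), and 28 and 2 with wtFGF2 (18.6% and 20.7%). The median log2 fold change of the set was -0.22 with humanFGF2, -0.24 with F2V2 and -0.15 with wtFGF2, against medians of 0.023, 0.0075 and 0.033 over all clusters tested. Over the 43 members that reached 5 on at least 4 arrays, it was -0.39, -0.27 and -0.35, so the order of the ligands by median depended on the 15 members near the floor. Split by how the receptors signal, 11 of 38 channel subunits and 6 of 20 G protein-coupled receptors were called lower with humanFGF2, 3 and 4 with F2V2, and 5 and 5 with wtFGF2. All of the 15 members near the floor except Grm6 and Htr2b are channel subunits. The split therefore does not compare the types at like levels. The 3 comparisons share the Control arrays and so are not independent of each other.

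**Figure D1:**
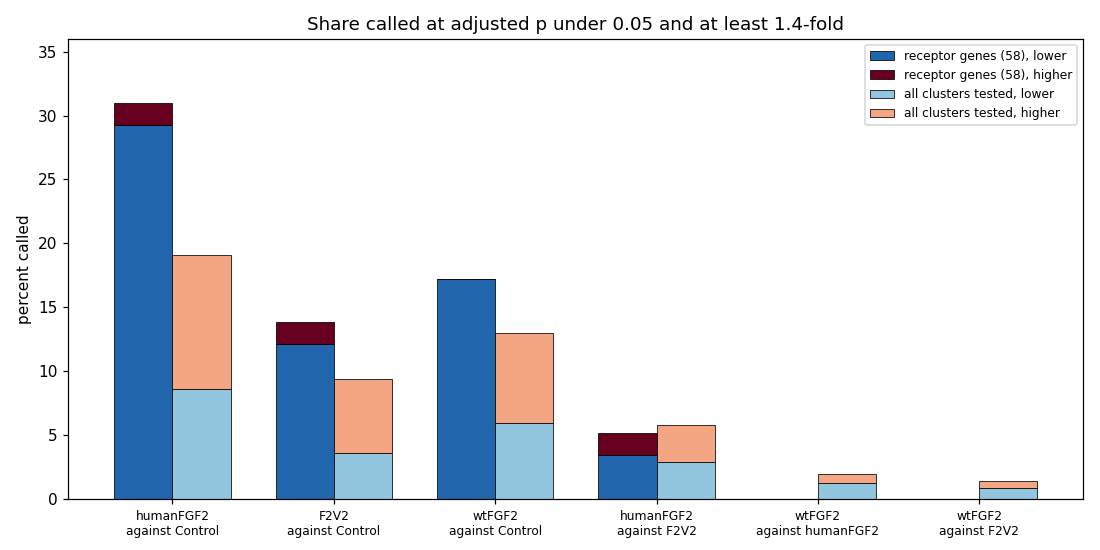
Percent of genes called lower (blue) and higher (red), stacked, in each of the 6 comparisons, for the 58 receptor genes (left, dark bars) and all 15653 clusters tested (right, pale bars). Against Control, the receptor bars are mostly blue, with 29.3% called lower and 1.72% higher for humanFGF2, while the bars of all clusters hold both directions; neither wtFGF2 comparison with another ligand has a receptor gene called.

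The genes called lower with all 3 ligands were Grin2c, Grin3a, Grm3, Htr1a and Htr1d. Of these, Grin2c, Grin3a and Htr1d matched an entry in the table of promoters, and the 3 are given here because the genes were called lower in every comparison with Control; each runs 250 bases before to 50 bases after the start site, from RefSeq on build GRCr8, 5′ to 3′ in the direction of the gene. Capitals mark matches to the motifs searched.
Grin2c (chr10:101005089-101005388, minus strand): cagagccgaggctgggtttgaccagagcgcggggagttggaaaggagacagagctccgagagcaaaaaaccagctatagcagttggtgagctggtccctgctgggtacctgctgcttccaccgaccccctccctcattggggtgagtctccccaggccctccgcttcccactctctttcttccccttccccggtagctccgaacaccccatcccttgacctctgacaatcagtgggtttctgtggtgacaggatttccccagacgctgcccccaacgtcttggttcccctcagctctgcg
Grin3a (chr5:69001509-69001808, minus strand): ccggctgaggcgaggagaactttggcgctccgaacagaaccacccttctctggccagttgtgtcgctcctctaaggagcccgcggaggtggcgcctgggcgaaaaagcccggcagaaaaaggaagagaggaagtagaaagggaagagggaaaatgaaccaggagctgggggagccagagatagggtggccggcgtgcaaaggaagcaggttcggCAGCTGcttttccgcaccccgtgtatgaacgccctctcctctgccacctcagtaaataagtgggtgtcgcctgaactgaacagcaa
Htr1d (chr5:153939485-153939784, plus strand): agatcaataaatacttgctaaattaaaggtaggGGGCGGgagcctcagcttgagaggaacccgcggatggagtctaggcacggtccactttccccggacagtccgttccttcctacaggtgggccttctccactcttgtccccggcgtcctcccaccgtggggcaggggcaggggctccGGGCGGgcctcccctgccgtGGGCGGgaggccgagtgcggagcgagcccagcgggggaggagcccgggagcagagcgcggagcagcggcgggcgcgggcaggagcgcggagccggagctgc
The motifs, read on both strands, were AP-1 (TGACTCA), CRE (TGACGTCA), ETS (CCGGAAG), Egr (GCGTGGGCG), Sp1 (GGGCGG), an E-box (CAGCTG) and the left and right parts of the RE1 element (TTCAGCACC and GGACAGCG), none of which overlapped another here. The Htr1d promoter held 3 Sp1 matches, the Grin3a promoter 1 E-box, and the Grin2c promoter none of these letters. Of 43 receptor genes with a promoter entry, 22 held an Sp1 match (51.2%, against 33.1% of 33465 promoters) and 10 an E-box (23.3% against 15.1%). Each receptor gene entered with its first listed promoter only, whereas the share over all took every distinct listed promoter, so the sets were counted differently. AP-1, CRE and Egr matches were found in 0 of the 43, against 4.63%, 1.83% and 0.544% of all promoters, ETS matches in 2 (4.65% against 8.74%), the left RE1 part in 0 (0.356%) and the right part in 1, Htr2c (2.33% against 1.21%). The G and C content of these promoters had a median of 59.7%, against 51.7% over all.

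**Figure D2:**
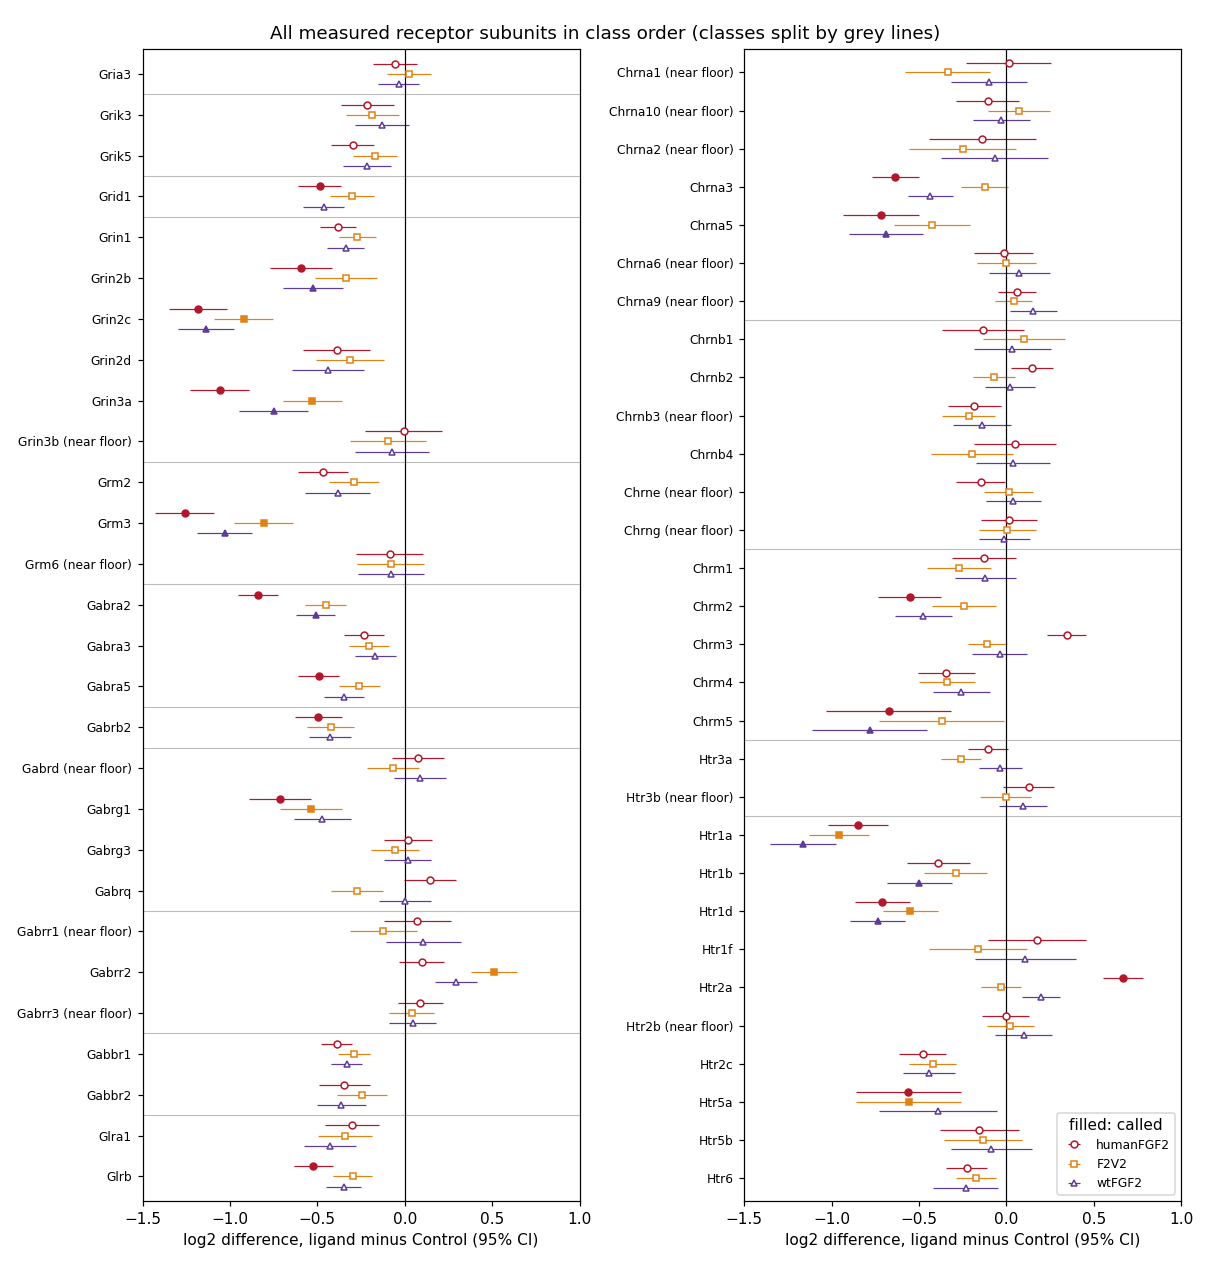
Log2 difference of each ligand minus Control (x axis) for all 58 receptor genes in class order (rows), with 95% confidence intervals; circles are humanFGF2, squares F2V2 and triangles wtFGF2, and filled symbols were called. Most points lie left of 0, down to -1.26 for Grm3 with humanFGF2, while Htr2a with humanFGF2 (0.67) and Gabrr2 with F2V2 (0.51) are the filled points to the right.

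Of the 13 genes of glutamate receptors, 5 were called lower with humanFGF2, 3 with F2V2 and 4 with wtFGF2. Over all clusters tested, 8.59%, 3.60% and 5.92% were called lower with these ligands. The metabotropic glutamate receptor gene Grm3, whose product lowers cyclic AMP through Gi proteins, had the lowest measured log2 fold change of the set with humanFGF2. That of Grin2c came next and may understate its drop. The 4 humanFGF2 arrays read 7.91, 7.84, 7.82 and 7.97 for Grm3, the F2V2 arrays 8.37, 8.13, 8.54 and 8.31, the wtFGF2 arrays 8.19, 8.16, 8.06 and 8.05 and the Control arrays 9.24, 9.11, 9.17 and 9.05. Every array of the 3 ligands lay below every Control array, and the humanFGF2 arrays lay below all those of F2V2 and wtFGF2. The log2 fold changes against Control came to -1.26 (SE 0.079, adjusted p = 2.70e-08) for humanFGF2, -0.81 (SE 0.079, adjusted p = 5.03e-06) for F2V2 and -1.03 (SE 0.074, adjusted p = 1.38e-08) for wtFGF2. Its nearest relative Grm2 differed from Control by -0.47 with humanFGF2, -0.29 with F2V2 and -0.38 with wtFGF2 (adjusted p = 4.51e-05, 0.00372 and 0.00203), each under 1.4-fold, and Grm6 lay near the floor. Astrocyte markers were measured on the same arrays: the mean over 6 measured markers was 10.03 to 10.07 on the humanFGF2 arrays, 10.78 to 10.98 with F2V2, 10.45 to 10.69 with wtFGF2 and 11.23 to 11.43 in Control, with 4, 1 and 4 of the 6 called lower with humanFGF2, F2V2 and wtFGF2. The medians of the 6 were -1.07, -0.23 and -0.67. Of 12 astrocyte markers listed only these 6 were measured. Gfap and Aqp4 were among those without a cluster of their own, so the 6 do not stand for astrocytes in general. With F2V2 the marker called was Gjb6, a gap junction gene (-1.76). Aldoc (-0.28) and Gja1 (-0.27) passed the adjusted p under 1.4-fold, while Kcnj10 (-0.19), Slc4a4 (-0.15) and Slc1a3 (-0.14) did not pass it. Their part in the Grm3 values was not tested, and fewer cells of a type cannot be told apart from less RNA per cell in these mixed cultures.

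NMDA receptor genes were called lower in 3 of 6 cases with humanFGF2, 2 with F2V2 and 3 with wtFGF2. The shares called lower over all clusters were 8.59%, 3.60% and 5.92%. Grin3a encodes a glycine-binding subunit that lowers the calcium permeability of the channel. On a log2 scale, Grin3a had values of 8.42, 8.50, 8.45 and 8.55 with humanFGF2, 8.91, 8.89, 9.28 and 8.95 with F2V2, 8.51, 8.87, 8.97 and 8.80 with wtFGF2 and 9.56, 9.50, 9.59 and 9.50 in Control. All treated arrays lay below Control; the humanFGF2 arrays lay below every F2V2 array, and wtFGF2 arrays overlapped both. By limma, Grin3a differed from Control by -1.06 (SE 0.078, adjusted p = 1.20e-07) with humanFGF2, -0.53 (SE 0.078, adjusted p = 0.000167) with F2V2 and -0.75 (SE 0.093, adjusted p = 6.12e-06) with wtFGF2 on the log2 scale.

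Grin2c, a glutamate-binding subunit best known from the cerebellum, was low throughout. Array values of Grin2c were 4.59, 4.44, 4.60 and 4.65 with humanFGF2, 4.65, 4.94, 4.95 and 4.78 with F2V2 and 4.76, 4.55, 4.60 and 4.55 with wtFGF2, against 5.89, 5.68, 5.67 and 5.76 in Control. Only Control arrays reached above the floor, so the size of these differences may be understated. Set against Control, Grin2c gave a log2 fold change of -1.18 (SE 0.077, adjusted p = 3.87e-08) with humanFGF2, -0.92 (SE 0.077, adjusted p = 1.40e-06) with F2V2 and -1.14 (SE 0.076, adjusted p = 5.58e-09) with wtFGF2.

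Grin2b encodes the glutamate-binding subunit that dominates in developing neurons. Grin2b measured 9.67, 9.79, 9.67 and 9.83 on the humanFGF2 arrays, 9.82, 9.88, 10.25 and 10.04 on the F2V2 arrays and 9.67, 9.92, 9.85 and 9.78 on the wtFGF2 arrays, against 10.28, 10.31, 10.36 and 10.37 on the Control arrays. No treated array reached the level of a Control array. Relative to Control, the log2 fold change was -0.59 (SE 0.082, adjusted p = 4.27e-05) with humanFGF2, -0.34 (SE 0.082, adjusted p = 0.00631) with F2V2 and -0.53 (SE 0.081, adjusted p = 5.67e-05) with wtFGF2. It was called with humanFGF2 and wtFGF2; without wtFGF2 replicate 1 the wtFGF2 value was -0.48, just under the threshold. Its second, dimmer cluster gave -0.26, -0.28 and -0.31 with humanFGF2, F2V2 and wtFGF2 and was not called.

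Grin1, the subunit that every NMDA receptor holds, averaged 10.26 ± 0.053 with humanFGF2, 10.37 ± 0.068 with F2V2, 10.30 ± 0.070 with wtFGF2 and 10.64 ± 0.017 in Control (SD, n = 4 each), and its log2 fold changes of -0.38, -0.27 and -0.34 with humanFGF2, F2V2 and wtFGF2 passed the adjusted p (1.93e-05, 0.000709 and 3.34e-05) but not 1.4-fold. Grin2d gave -0.39, -0.31 and -0.44 in the same order, also under 1.4-fold, and Grin3b lay near the floor. In all, 5 of the 6 NMDA genes passed the adjusted p with each ligand, always toward lower values. The shares of all clusters lower by adjusted p alone were 21.2%, 16% and 18.6% with humanFGF2, F2V2 and wtFGF2. These 6 are the NMDA genes with a cluster of their own, and Grin2a is not among them.

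Grid1, a delta receptor that binds cerebellins at synapses rather than opening to glutamate, was called lower with humanFGF2. The 4 humanFGF2 arrays read 10.36, 10.38, 10.38 and 10.47 for Grid1, the F2V2 arrays 10.60, 10.50, 10.67 and 10.55, the wtFGF2 arrays 10.37, 10.51, 10.40 and 10.40 and the Control arrays 11.02, 10.83, 10.83 and 10.86. Treated and Control arrays did not overlap. The log2 fold changes against Control came to -0.49 (SE 0.058, adjusted p = 1.02e-05) for humanFGF2, -0.30 (SE 0.058, adjusted p = 0.00117) for F2V2 and -0.46 (SE 0.056, adjusted p = 4.23e-06) for wtFGF2. This call sits at the threshold: without Control replicate 1, or without humanFGF2 replicate 1, 2 or 3, the value was -0.44, -0.47, -0.48 and -0.48 and the call was lost, while without wtFGF2 replicate 2 the wtFGF2 value of -0.49 was called. The dimmer Grid1 cluster gave -0.42, -0.23 and -0.40 and was not called.

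Gria3, the AMPA subunit gene measured here, averaged 10.24 ± 0.048 with humanFGF2, 10.31 ± 0.11 with F2V2, 10.26 ± 0.052 with wtFGF2 and 10.29 ± 0.052 in Control (SD, n = 4 each), with differences from Control of -0.054 (95% CI -0.18 to 0.071), 0.022 and -0.036 for humanFGF2, F2V2 and wtFGF2. Kainate receptor genes held 2 members: Grik3, at 9.59 ± 0.062 with humanFGF2, 9.62 ± 0.15 with F2V2, 9.68 ± 0.11 with wtFGF2 and 9.81 ± 0.067 in Control (SD, n = 4 each), differed by -0.21, -0.19 and -0.13, and Grik5, a subunit that raises the affinity for kainate, by -0.30, -0.17 and -0.22. Neither was called. The 15 measured partners of glutamate receptors, scaffolds and auxiliary subunits among them, had 1 called lower with humanFGF2 (Cacng4, an auxiliary subunit of AMPA receptors, -0.64, SE 0.059, adjusted p = 9.29e-07), 1 called higher with F2V2 (Cnih3, an auxiliary subunit of the same receptors, 0.51, adjusted p = 0.00340) and 0 called with wtFGF2, with medians of -0.18, -0.17 and -0.13.

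Of the 15 genes of GABA and glycine receptors, 5 were called lower with humanFGF2, 1 with F2V2 and 1 with wtFGF2, and 1 higher with F2V2. Over all clusters tested, 8.59%, 3.60% and 5.92% were called lower with these ligands, and 5.76% higher with F2V2. Gabra2, an alpha subunit of synaptic GABA-A receptors, had the largest drop of the 15 genes with humanFGF2. On a log2 scale, Gabra2 had values of 10.30, 10.25, 10.28 and 10.36 with humanFGF2, 10.69, 10.58, 10.72 and 10.76 with F2V2, 10.57, 10.58, 10.65 and 10.71 with wtFGF2 and 11.22, 11.16, 11.05 and 11.12 in Control. The humanFGF2 arrays were lowest, F2V2 and wtFGF2 arrays lay between, and no array of one of these levels reached the next. By limma, Gabra2 differed from Control by -0.84 (SE 0.054, adjusted p = 3.54e-08) with humanFGF2, -0.45 (SE 0.054, adjusted p = 3.04e-05) with F2V2 and -0.51 (SE 0.053, adjusted p = 8.63e-07) with wtFGF2 on the log2 scale. Without Control replicate 1, the wtFGF2 value was -0.48 and under the threshold.

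Gabra5, the alpha subunit found mostly outside synapses, was called lower with humanFGF2. Array values of Gabra5 were 10.84, 10.92, 10.81 and 10.79 with humanFGF2, 11.12, 11.16, 10.94 and 11.06 with F2V2 and 10.91, 11.05, 11.03 and 10.97 with wtFGF2, against 11.31, 11.30, 11.36 and 11.36 in Control. All treated arrays lay below the Control arrays. Set against Control, Gabra5 gave a log2 fold change of -0.49 (SE 0.055, adjusted p = 5.59e-06) with humanFGF2, -0.26 (SE 0.055, adjusted p = 0.00235) with F2V2 and -0.35 (SE 0.054, adjusted p = 6.17e-05) with wtFGF2. Without Control replicate 4 or humanFGF2 replicate 3 or 4 the humanFGF2 value was -0.48 in each case and the call was lost.

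Gabra3, another alpha subunit gene, was at 11.88 ± 0.053 with humanFGF2, 11.91 ± 0.073 with F2V2, 11.94 ± 0.091 with wtFGF2 and 12.11 ± 0.057 in Control (SD, n = 4 each). It differed from Control by -0.23, -0.21 and -0.17 with humanFGF2, F2V2 and wtFGF2, past the adjusted p (0.00240, 0.00804 and 0.0235) but under 1.4-fold.

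Gabrb2, the beta subunit gene measured, was called lower with humanFGF2. Gabrb2 measured 9.35, 9.34, 9.49 and 9.39 on the humanFGF2 arrays, 9.51, 9.41, 9.46 and 9.48 on the F2V2 arrays and 9.44, 9.50, 9.47 and 9.43 on the wtFGF2 arrays, against 10.01, 9.72, 9.95 and 9.88 on the Control arrays. Control replicate 2, at 9.72, was the lowest Control array and still above every treated array. Relative to Control, the log2 fold change was -0.50 (SE 0.062, adjusted p = 1.77e-05) with humanFGF2, -0.42 (SE 0.062, adjusted p = 0.000167) with F2V2 and -0.43 (SE 0.057, adjusted p = 1.41e-05) with wtFGF2. Without Control replicate 1 or 3 or humanFGF2 replicate 1 or 2 the humanFGF2 value was -0.46, -0.48, -0.48 and -0.48, under the threshold.

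Gabrg1, a gamma subunit gene that lies next to Gabra2 in the RefSeq order of genes, was called lower with humanFGF2 and F2V2. The 4 humanFGF2 arrays read 10.32, 10.33, 10.16 and 10.23 for Gabrg1, the F2V2 arrays 10.52, 10.50, 10.17 and 10.55, the wtFGF2 arrays 10.42, 10.60, 10.51 and 10.47 and the Control arrays 11.10, 10.95, 10.94 and 10.90. F2V2 replicate 3, at 10.17, stood apart from the other F2V2 arrays, and all treated arrays lay below Control. The log2 fold changes against Control came to -0.71 (SE 0.082, adjusted p = 7.49e-06) for humanFGF2, -0.54 (SE 0.082, adjusted p = 0.000205) for F2V2 and -0.47 (SE 0.077, adjusted p = 0.000107) for wtFGF2. Without F2V2 replicate 3 the F2V2 value was -0.45 and was not called; without Control replicate 4 or wtFGF2 replicate 2 the wtFGF2 value was -0.49 and -0.50 and was called.

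Gabrg3, the gamma subunit gene next to Gabra5, averaged 11.23 ± 0.086 with humanFGF2, 11.16 ± 0.026 with F2V2, 11.23 ± 0.083 with wtFGF2 and 11.21 ± 0.12 in Control (SD, n = 4 each), with differences from Control of 0.017 (95% CI -0.12 to 0.15), -0.055 and 0.017 for humanFGF2, F2V2 and wtFGF2. Gabrq, the theta subunit, differed by 0.15, -0.27 and 0.0014, and Gabrd lay near the floor.

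Gabrr2, a rho subunit of the receptors once called GABA-C, was the gene called higher with F2V2. On a log2 scale, Gabrr2 had values of 4.95, 5.08, 5.05 and 5.11 with humanFGF2, 5.54, 5.47, 5.47 and 5.36 with F2V2, 5.30, 5.18, 5.28 and 5.21 with wtFGF2 and 4.87, 5.06, 4.99 and 4.88 in Control. The F2V2 arrays were highest and the wtFGF2 arrays next, with humanFGF2 and Control arrays overlapping around the floor. By limma, Gabrr2 differed from Control by 0.097 (SE 0.060, adjusted p = 0.218) with humanFGF2, 0.51 (SE 0.060, adjusted p = 2.61e-05) with F2V2 and 0.29 (SE 0.057, adjusted p = 0.000574) with wtFGF2 on the log2 scale. The Control mean lay under the floor of 5, so the difference with F2V2 may be understated. Without Control replicate 1 or 4 or F2V2 replicate 1 the F2V2 value was 0.483, 0.485 and 0.483, and each fell short of the threshold. Its neighbour Gabrr1 and Gabrr3 lay near the floor.

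For the slow GABA-B receptor, Gabbr1, the subunit that binds GABA, ranged over the 4 arrays of a group at 11.98 to 12.02 with humanFGF2, 12.06 to 12.16 with F2V2 and 11.99 to 12.10 with wtFGF2, against 12.38 to 12.40 in Control. Its differences from Control of -0.39, -0.29 and -0.33 with humanFGF2, F2V2 and wtFGF2 were under 1.4-fold, with adjusted p = 4.18e-06, 0.000138 and 6.17e-06. Gabbr2, the subunit that couples to G proteins, gave -0.35, -0.25 and -0.36.

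Glrb, the glycine receptor subunit that anchors to gephyrin, was called lower with humanFGF2. Array values of Glrb were 10.78, 10.80, 10.87 and 10.87 with humanFGF2, 11.14, 10.99, 11.04 and 11.07 with F2V2 and 11.03, 11.02, 10.96 and 11.01 with wtFGF2, against 11.42, 11.40, 11.31 and 11.29 in Control. The 3 treated groups lay below Control without overlap. Set against Control, Glrb gave a log2 fold change of -0.52 (SE 0.051, adjusted p = 1.76e-06) with humanFGF2, -0.30 (SE 0.051, adjusted p = 0.000546) with F2V2 and -0.35 (SE 0.048, adjusted p = 1.67e-05) with wtFGF2. Glra1, the ligand-binding subunit of the mature receptor, differed by -0.30, -0.34 and -0.43, each past the adjusted p and under 1.4-fold. Among 10 measured partners of inhibitory receptors, 4 were called lower with humanFGF2 (Kctd8, Kctd12, Kctd16 and Slitrk3), 0 with F2V2 and 3 with wtFGF2 (Kctd8, Kctd16 and Slitrk3), with medians of -0.39, -0.21 and -0.36. Slitrk3, an adhesion protein of inhibitory synapses, gave -0.60, -0.47 and -0.51 (adjusted p = 5.01e-06, 0.000118 and 4.62e-06), and Kctd12, an auxiliary subunit of GABA-B receptors, gave -0.77, -0.010 and -0.48 (adjusted p = 5.68e-05, 0.959 and 0.00180).

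**Figure D3:**
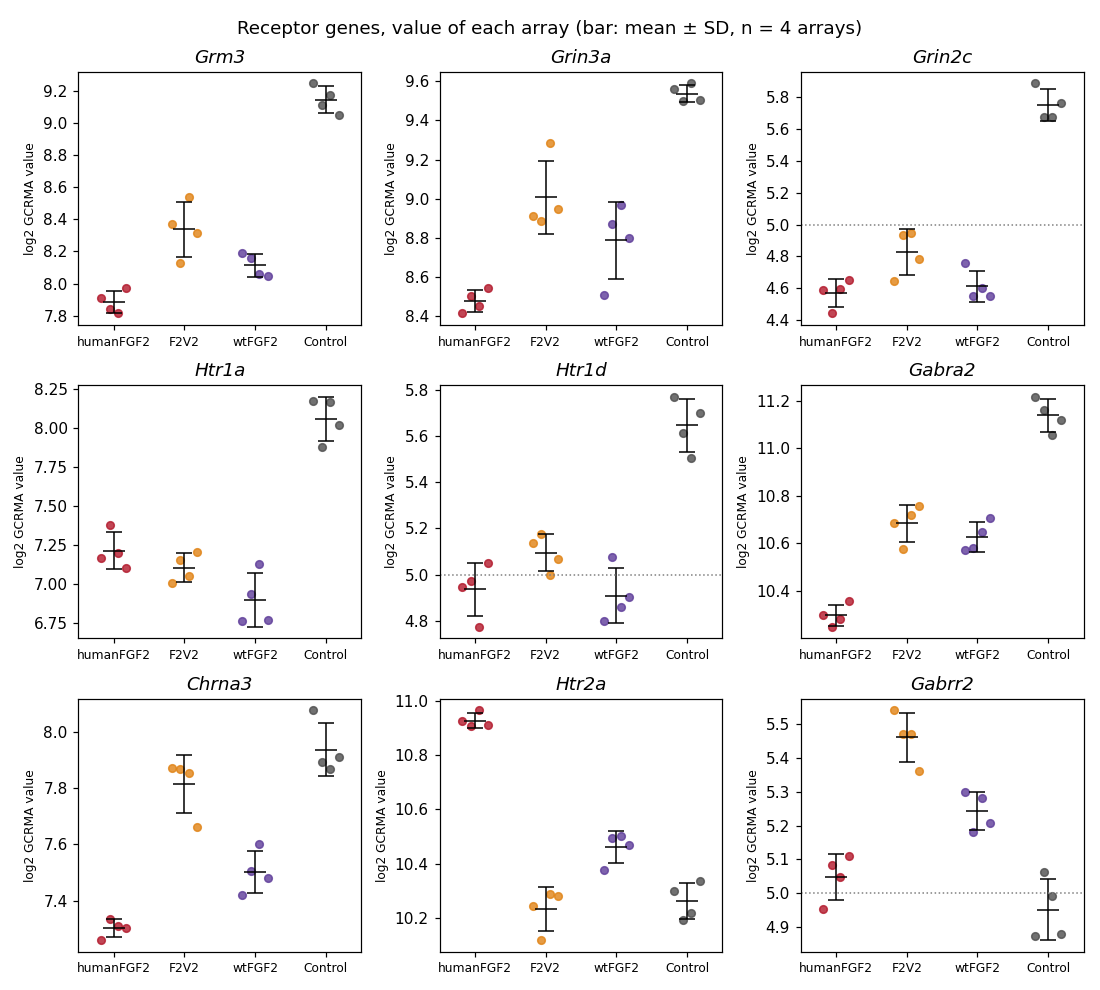
Log2 value of each array (points) with the mean and SD of 4 arrays (bars) for 9 receptor genes, groups in the order humanFGF2, F2V2, wtFGF2 and Control; each panel has its own y axis and a dotted line marks the floor of 5 where it falls in range. Grm3, Grin3a, Grin2c, Htr1a, Htr1d and Gabra2 sit below Control with every ligand, Chrna3 overlaps Control with F2V2, Htr2a is above all others with humanFGF2 at 10.91 to 10.97, and Gabrr2 is highest with F2V2.

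Acetylcholine acts on nicotinic channels and on muscarinic receptors coupled to G proteins. Of the 18 genes of its receptors, 4 were called lower with humanFGF2, 0 with F2V2 and 2 with wtFGF2. Over all clusters tested, 8.59%, 3.60% and 5.92% were called lower, so the 0 with F2V2 lies near that share. Of 7 nicotinic alpha genes, 2 were called lower with humanFGF2, 0 with F2V2 and 1 with wtFGF2, and 5 lay near the floor. Chrna3, which forms the ganglionic type of receptor, differed between the ligands. Chrna3 measured 7.26, 7.33, 7.31 and 7.30 on the humanFGF2 arrays, 7.87, 7.87, 7.86 and 7.66 on the F2V2 arrays and 7.42, 7.51, 7.60 and 7.48 on the wtFGF2 arrays, against 8.08, 7.90, 7.87 and 7.91 on the Control arrays. The humanFGF2 arrays lay below all others, wtFGF2 arrays came next, and F2V2 and Control arrays overlapped. Relative to Control, the log2 fold change was -0.64 (SE 0.062, adjusted p = 1.65e-06) with humanFGF2, -0.12 (SE 0.062, adjusted p = 0.153) with F2V2 and -0.44 (SE 0.061, adjusted p = 2.12e-05) with wtFGF2.

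Chrna5, an accessory subunit and the direct neighbour of Chrna3, was called lower with humanFGF2 and wtFGF2. The 4 humanFGF2 arrays read 6.50, 6.27, 6.66 and 6.69 for Chrna5, the F2V2 arrays 6.87, 6.85, 6.85 and 6.72, the wtFGF2 arrays 6.64, 6.56, 6.36 and 6.67 and the Control arrays 7.48, 7.11, 7.31 and 7.10. Each treated array lay below each Control array. The log2 fold changes against Control came to -0.72 (SE 0.10, adjusted p = 4.60e-05) for humanFGF2, -0.43 (SE 0.10, adjusted p = 0.00496) for F2V2 and -0.69 (SE 0.10, adjusted p = 3.12e-05) for wtFGF2. The third gene of this cluster, Chrnb4, was close to the floor and differed from Control by 0.047, -0.20 and 0.038.

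Chrnb2, the beta subunit of the most common receptor of the brain, averaged 10.71 ± 0.092 with humanFGF2, 10.50 ± 0.063 with F2V2, 10.59 ± 0.15 with wtFGF2 and 10.57 ± 0.036 in Control (SD, n = 4 each) and was not called; with humanFGF2 it differed by 0.15 (adjusted p = 0.0462), with F2V2 by -0.071 and with wtFGF2 by 0.019. None of the 6 nicotinic beta and other subunit genes was called with any ligand, and 3 of them lay near the floor.

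Chrm2, a muscarinic receptor coupled to Gi, was called lower with humanFGF2. On a log2 scale, Chrm2 had values of 9.65, 9.75, 9.79 and 9.71 with humanFGF2, 10.01, 9.93, 10.24 and 9.97 with F2V2, 9.77, 9.76, 9.88 and 9.80 with wtFGF2 and 10.44, 10.08, 10.23 and 10.36 in Control. F2V2 arrays overlapped Control and the others did not. By limma, Chrm2 differed from Control by -0.55 (SE 0.084, adjusted p = 9.37e-05) with humanFGF2, -0.24 (SE 0.084, adjusted p = 0.0403) with F2V2 and -0.48 (SE 0.078, adjusted p = 0.000105) with wtFGF2 on the log2 scale. The wtFGF2 value lay just under 1.4-fold, and without Control replicate 2 or 3 or wtFGF2 replicate 3 it was -0.54, -0.49 and -0.50 and was called.

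Chrm5, coupled to Gq, was called lower with humanFGF2 and wtFGF2 from a level close to the floor. Array values of Chrm5 were 4.79, 4.88, 4.57 and 5.14 with humanFGF2, 4.99, 5.41, 5.46 and 4.75 with F2V2 and 4.91, 4.69, 4.79 and 4.58 with wtFGF2, against 5.77, 5.63, 5.46 and 5.23 in Control. The F2V2 arrays were spread widely and reached into Control. Set against Control, Chrm5 gave a log2 fold change of -0.67 (SE 0.17, adjusted p = 0.00403) with humanFGF2, -0.37 (SE 0.17, adjusted p = 0.107) with F2V2 and -0.78 (SE 0.15, adjusted p = 0.000592) with wtFGF2. The means with humanFGF2 and wtFGF2 lie under 5, so these drops may be understated.

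Chrm3, also coupled to Gq, lay 0.34 above Control with humanFGF2 (SE 0.052, adjusted p = 9.06e-05, under 1.4-fold) and -0.11 and -0.039 with F2V2 and wtFGF2. Chrm4 differed by -0.34, -0.34 and -0.26 and Chrm1 by -0.13, -0.27 and -0.12. Of the 11 measured genes of transmitter synthesis and vesicle loading, Slc5a7, the choline transporter that supplies cholinergic terminals, gave -0.80, -0.74 and -0.79 with humanFGF2, F2V2 and wtFGF2 (adjusted p = 3.13e-05, 0.000147 and 1.45e-05) and was the 1 called with each. In the same list, Slc18a3, which loads acetylcholine into vesicles, went the other way and was not called. It gave 0.12, 0.29 and 0.11 with humanFGF2, F2V2 and wtFGF2 (adjusted p = 0.273, 0.0146 and 0.321). The medians of that list were -0.096, -0.15 and -0.063.

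Of the 12 genes of serotonin receptors, 3 were called lower with each ligand and 1 higher with humanFGF2. Over all clusters tested, 8.59%, 3.60% and 5.92% were called lower with humanFGF2, F2V2 and wtFGF2, and 10.5% higher with humanFGF2. Htr1a, a Gi-coupled receptor, was called lower with all 3 ligands. Htr1a measured 7.17, 7.38, 7.20 and 7.10 on the humanFGF2 arrays, 7.00, 7.15, 7.05 and 7.21 on the F2V2 arrays and 6.76, 6.94, 7.13 and 6.77 on the wtFGF2 arrays, against 8.18, 7.88, 8.17 and 8.02 on the Control arrays. Treated and Control arrays were well separated. Relative to Control, the log2 fold change was -0.85 (SE 0.080, adjusted p = 1.26e-06) with humanFGF2, -0.96 (SE 0.080, adjusted p = 1.42e-06) with F2V2 and -1.16 (SE 0.090, adjusted p = 2.95e-08) with wtFGF2.

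Htr1d, of the same Gi-coupled family, was called lower with all 3 ligands near the floor. The 4 humanFGF2 arrays read 4.95, 4.97, 4.77 and 5.05 for Htr1d, the F2V2 arrays 5.14, 5.18, 5.00 and 5.07, the wtFGF2 arrays 4.80, 5.08, 4.86 and 4.90 and the Control arrays 5.77, 5.61, 5.50 and 5.70. The means with humanFGF2 and wtFGF2 lie under 5, so those differences may be understated. The log2 fold changes against Control came to -0.71 (SE 0.073, adjusted p = 2.68e-06) for humanFGF2, -0.55 (SE 0.073, adjusted p = 6.80e-05) for F2V2 and -0.74 (SE 0.075, adjusted p = 7.15e-07) for wtFGF2.

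Htr1b, a presynaptic receptor of this family, was called lower with wtFGF2 and not with the other ligands. On a log2 scale, Htr1b had values of 9.36, 9.42, 9.26 and 9.37 with humanFGF2, 9.41, 9.47, 9.63 and 9.31 with F2V2, 9.13, 9.40, 9.35 and 9.10 with wtFGF2 and 9.97, 9.63, 9.71 and 9.66 in Control. With humanFGF2 and wtFGF2 no Htr1b array reached the Control arrays, and F2V2 replicate 3 overlapped the lowest of them. By limma, Htr1b differed from Control by -0.39 (SE 0.083, adjusted p = 0.00155) with humanFGF2, -0.29 (SE 0.083, adjusted p = 0.0160) with F2V2 and -0.50 (SE 0.089, adjusted p = 0.000233) with wtFGF2 on the log2 scale. Without Control replicate 1 or wtFGF2 replicate 1 or 4 the wtFGF2 value was -0.42, -0.46 and -0.45 and was not called.

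Htr2a, a Gq-coupled receptor, was the gene called higher with humanFGF2. Array values of Htr2a were 10.93, 10.91, 10.97 and 10.91 with humanFGF2, 10.24, 10.12, 10.29 and 10.28 with F2V2 and 10.37, 10.50, 10.50 and 10.47 with wtFGF2, against 10.30, 10.19, 10.22 and 10.34 in Control. The humanFGF2 arrays lay above every other array, the wtFGF2 arrays lay just above Control, and F2V2 and Control overlapped. Set against Control, Htr2a gave a log2 fold change of 0.67 (SE 0.053, adjusted p = 2.48e-07) with humanFGF2, -0.030 (SE 0.053, adjusted p = 0.724) with F2V2 and 0.20 (SE 0.052, adjusted p = 0.00542) with wtFGF2. Its close relative Htr2c, also coupled to Gq, differed from Control by -0.48, -0.42 and -0.44 (adjusted p = 2.27e-05, 0.000162 and 8.13e-05), each under 1.4-fold, while Htr2b lay near the floor.

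Htr5a was called lower with humanFGF2 and F2V2. Htr5a measured 5.92, 6.02, 5.68 and 5.86 on the humanFGF2 arrays, 5.55, 6.26, 5.82 and 5.88 on the F2V2 arrays and 5.67, 6.12, 6.44 and 5.94 on the wtFGF2 arrays, against 6.64, 6.13, 6.53 and 6.43 on the Control arrays. F2V2 and wtFGF2 arrays overlapped Control. Relative to Control, the log2 fold change was -0.56 (SE 0.14, adjusted p = 0.00432) with humanFGF2, -0.56 (SE 0.14, adjusted p = 0.00698) with F2V2 and -0.39 (SE 0.16, adjusted p = 0.0637) with wtFGF2. Without F2V2 replicate 1 the F2V2 value was -0.45 and was not called; without Control replicate 2 or wtFGF2 replicate 3 the wtFGF2 value was -0.49 and -0.52 and was called. Htr3a, the channel-forming serotonin receptor, averaged 6.90 ± 0.055 with humanFGF2, 6.74 ± 0.063 with F2V2, 6.97 ± 0.10 with wtFGF2 and 7.00 ± 0.070 in Control (SD, n = 4 each) and differed by -0.10, -0.26 and -0.036, and Htr6, coupled to Gs, by -0.23, -0.17 and -0.23.

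The 15 members near the floor, whose means were under 5 in all groups, had no call with any ligand. They were Grin3b, Grm6, Gabrd, Gabrr1, Gabrr3, Chrna1, Chrna2, Chrna6, Chrna9, Chrna10, Chrnb3, Chrne, Chrng, Htr3b and Htr2b. By adjusted p alone, 2 of them were lower than in Control: Chrnb3 by -0.18 with humanFGF2 (adjusted p = 0.0448) and -0.22 with F2V2 (adjusted p = 0.0290), and Chrna1 by -0.34 with F2V2 (adjusted p = 0.0341). The size of a drop may be understated at this level.

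To ask where the shortened ligand differed from the full one, humanFGF2 was compared with F2V2 directly. Here 2 receptor genes were called lower (Grin3a and Chrna3) and 1 higher (Htr2a) with humanFGF2 than with F2V2, where 2.91% of all clusters were called lower and 2.89% higher. With array medians subtracted, 1 was called lower (Grin3a) and 2 higher (Htr2a and Chrm3, the second at 0.49). Htr2a averaged 10.93 with humanFGF2 and 10.23 with F2V2, a log2 difference of 0.70 (95% CI 0.58 to 0.81, adjusted p = 1.22e-06). Chrna3 averaged 7.30 with humanFGF2 and 7.81 with F2V2, a log2 difference of -0.51 (95% CI -0.65 to -0.38, adjusted p = 6.42e-05). Grin3a averaged 8.48 with humanFGF2 and 9.01 with F2V2, a log2 difference of -0.53 (95% CI -0.70 to -0.36, adjusted p = 0.000305). Without F2V2 replicate 3, whose Grin3a value stood above the other F2V2 arrays, the Grin3a difference was -0.44 and was not called. By adjusted p alone, 11 genes were lower and 5 higher with humanFGF2 (9.65% and 11.8% of all clusters).

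**Figure D4:**
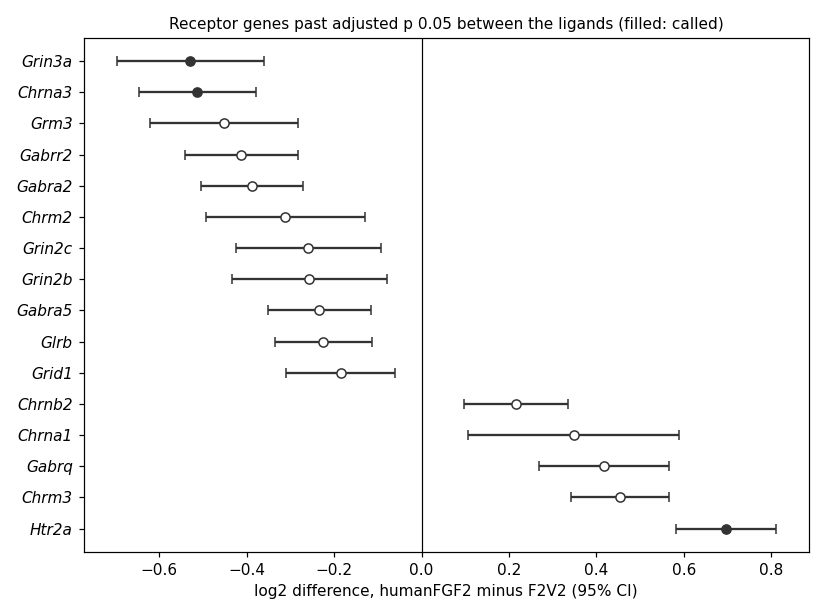
Log2 difference of humanFGF2 minus F2V2 (x axis) with 95% confidence intervals for the 16 receptor genes past the adjusted p of 0.05 (rows, lowest at the top); filled points were also at least 1.4-fold. Values run from -0.53 for Grin3a to 0.70 for Htr2a, with 11 genes left of 0 and 5 right of it.

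Among the genes past the adjusted p but under 1.4-fold, Grm3 differed by -0.45 between the ligands (95% CI -0.62 to -0.28), Gabra2 by -0.39 and Gabrr2 by -0.41, while Chrm3 differed by 0.45 (95% CI 0.34 to 0.57) and Gabrq by 0.42. Without F2V2 replicate 2 the Grm3 difference was -0.52 and was called. Several genes called against Control showed no difference between the ligands past the adjusted p: for Htr1a it was 0.11 (95% CI -0.064 to 0.28), for Htr1d -0.16 (-0.32 to -0.0022), for Htr5a -0.0031 (-0.30 to 0.30) and for Gabrb2 -0.073 (-0.21 to 0.061). These misses of the threshold do not show that the ligands acted alike.

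Between wtFGF2 and humanFGF2, 0 receptor genes were called by limma (1.28% of all clusters tested were called lower and 0.696% higher), 0 by the methods' one-way test, and 12 had an unadjusted p under 0.05. By adjusted p alone, 3 were higher and 3 lower with wtFGF2, where 3.51% and 4.93% of all clusters were. The lower ones were Htr2a (-0.47, SE 0.052, adjusted p = 2.32e-05), Chrm3 (-0.38, adjusted p = 0.00341) and Htr1a (-0.31, adjusted p = 0.0396), and the higher ones Gabra2 (0.33, adjusted p = 0.000760), Gabrr2 (0.19) and Glrb (0.17).

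Between wtFGF2 and F2V2, 0 were called by either test as well (0.894% of all clusters were called lower and 0.524% higher) and 20 had an unadjusted p under 0.05, with 3 higher and 2 lower by adjusted p alone (1.68% and 2.24%). Higher with wtFGF2 were Gabrq (0.27), Htr3a (0.23) and Htr2a (0.23, adjusted p = 0.0188), and lower were Chrna3 (-0.31, adjusted p = 0.00681) and Gabrr2 (-0.22). For Htr2a and Chrna3, wtFGF2 thus lay between humanFGF2 and F2V2 in level, with a difference past the adjusted p from both for Htr2a; for Chrna3 the difference from humanFGF2 was 0.20 (95% CI 0.072 to 0.33, adjusted p = 0.0522).

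The markers of neurons, which make most of these receptors, were measured on the same arrays. Their mean over 13 measured markers was 10.74 to 10.81 on the humanFGF2 arrays, 10.68 to 10.75 with F2V2, 10.72 to 10.85 with wtFGF2 and 10.88 to 10.96 in Control. None was called lower with any ligand, although 9, 9 and 8 of the 13 were lower by adjusted p alone with humanFGF2, F2V2 and wtFGF2, and the median log2 fold changes were -0.20, -0.20 and -0.19. Gap43, a growth cone protein, was called higher with humanFGF2 and wtFGF2 (0.82 and 0.50, adjusted p = 1.69e-07 and 3.21e-06), whereas the neurofilament gene Nefm gave -0.42, -0.34 and -0.36 and the synaptic vesicle gene Syn1 -0.32, -0.24 and -0.29, all under 1.4-fold.

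Markers of oligodendrocytes had 7, 3 and 6 of 8 measured called lower with humanFGF2, F2V2 and wtFGF2, with an array mean of 8.96 to 9.10, 9.67 to 9.85 and 9.28 to 9.34, against 10.16 to 10.36 in Control. Of 9 measured markers of their progenitors, 4, 2 and 2 were called lower (Gpr17 and C1ql1 with each ligand, Cspg4 and Sox10 also with humanFGF2), and 0, 2 and 2 higher (Olig1 and Olig2 with both F2V2 and wtFGF2). Microglia markers had 1 of 11 called lower with humanFGF2 (P2ry12), and 2 and 1 called higher with F2V2 (Itgam and Tmem119) and wtFGF2 (Tmem119). Fibroblast and pericyte markers had 2 of 6 called lower with humanFGF2 (Pdgfrb and Col1a1) and none with the other ligands. What part these glial changes had in the receptor values was not tested.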

How the data were processed

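Biotin-labelled RNA was measured on 16 Affymetrix arrays (Rat Gene 2.1 ST). The deposited values are on a log2 scale, made by the authors by GCRMA normalization of probe sets and a one-step Tukey's biweight summary to transcript clusters in Partek Genomics Suite 6.6. The genome build is not given in the sources used here. Groups were taken from the labels. Clusters were named through the platform annotation, in which 15653 of 36685 clusters carried a symbol; all 58 receptor genes paired with the same RefSeq symbol by Entrez ID.

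Group means were compared by limma's moderated test (lmFit, eBayes; limma 3.58.1, R 4.3.3). The humanFGF2, F2V2 and Control arrays were fitted together, and comparisons with wtFGF2 came from a fit of all 16 arrays. The number of arrays limits the precision. The fit was tested on simulated data.

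The receptor genes and the lists of partners and markers were chosen with earlier results of these data known. Not all listed genes were measured. Measured were 15 of 28 glutamate receptor partners, 10 of 14 inhibitory receptor partners and 11 of 16 genes of transmitter synthesis and vesicle loading. Of the markers, 13 of 18 for neurons and 6 of 12 for astrocytes were measured. For oligodendrocytes and their progenitors these were 8 of 11 and 9 of 10. Named with full values were the members called in at least 1 of the 6 comparisons and the member with the highest mean in each of 16 receptor classes. Up to 4 genes of a list were to be named, by adjusted p with humanFGF2. Outside that rule, the list genes Cnih3, Kctd8, Kctd16, Sox10 and Olig1, each called in at least 1 comparison, were also named. So were the astrocyte markers Aldoc and Slc1a3, and Slc18a3 of the transmitter list. Grm2, Grik5, Grin2d, Gabrq, Gabbr2, Glra1, Chrnb4, Chrm1, Chrm3, Chrm4, Htr2c and Htr6 were added after their values were seen. Alternatives were other fold thresholds, all clusters, quantile normalization, array medians subtracted, a filter on clusters that reach 5 on at least 4 arrays, the replicate block, a trended and robust prior, the methods' one-way ANOVA, a gene's clusters averaged, other groups in the fit, and each array left out. Motifs were searched in RefSeq promoters of build GRCr8 after the changes were known.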

Additional observations from a re-analysis of the deposited data

Results flagged for a closer look

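In the 112 sets of 4 arrays looked at, 28 genes in 4 groups, 5 held an array whose distance from its nearest neighbour took up most of the set's range; about 1 in 20 such sets is picked out by chance. For Grin3a, F2V2 replicate 3 read 9.28 where the other F2V2 arrays read 8.89 to 8.95. For Gabrg1, the same array read 10.17, below the others at 10.50 to 10.55. F2V2 replicate 4 was lowest for the neighbouring genes Chrna3, at 7.66 against 7.86 to 7.87, and Chrna5, at 6.72 against 6.85 to 6.86. For Chrnb2, Control replicate 2 read 10.52 against 10.58 to 10.59 on the other Control arrays.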

How the results depend on the processing

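The number of receptor genes called depended on the fold threshold. With a threshold of 2-fold, 3 were called for humanFGF2 against Control, 0 for F2V2 against Control, 3 for wtFGF2 against Control and 0 for humanFGF2 against F2V2; with none, 34, 33, 30 and 16 were, and 6 and 5 for wtFGF2 against humanFGF2 and against F2V2. The share of all clusters called at 2-fold was not counted, so the 2-fold counts cannot be set against it or read as a ligand difference. With array medians subtracted, 1 (Htr2a) was called for wtFGF2 against humanFGF2. Leaving out 1 array gave 16 to 20, 6 to 8, 8 to 13 and 2 to 4 calls in the first 4 comparisons and 0 in both wtFGF2 comparisons with another ligand. Of 106 fold changes of named genes recomputed, 13 values changed sign out of 2014, all between small values: by quantile normalization Gabrg3 became -0.032 with humanFGF2 and -0.0068 with wtFGF2, and Htr3a 0.029 with wtFGF2; with array medians subtracted Gria3 became 0.0026 with humanFGF2; and leaving out 1 array moved Gabrg3 between -0.033 and 0.064 with humanFGF2 and between -0.032 and 0.065 with wtFGF2, Htr3a between -0.074 and 0.0073 and Chrnb2 between -0.041 and 0.074 with wtFGF2, and Htr2a between -0.053 and 0.0088 and Gria3 between -0.022 and 0.066 with F2V2. The cause was not tested. Deviations of same-numbered arrays from their group means were weakly correlated (-0.165 to 0.22 over 24 pairs). Such values cannot exclude a culture or batch shared by the arrays of a number. The replicate block changed no call: 18, 8, 10, 3, 0 and 0 receptor genes were called. Subtracting array medians took Grid1 (-0.43), Gabra5 (-0.44), Gabrb2 (-0.44) and Glrb (-0.47) with humanFGF2, Gabra2 (-0.48) and Htr1b (-0.47) with wtFGF2 and Chrna3 (-0.48) between humanFGF2 and F2V2 under the threshold, and it added Chrm3 (0.49) between humanFGF2 and F2V2, which made 2 called higher and 1 lower, against 1 and 2 as reported. The mean over clusters took Grid1 and Grin2b under the threshold. Signal over background limits the members near the floor, where the size of a drop may be understated. Leaving out clusters that did not reach 5 on 4 arrays moved the median of the members to -0.39, -0.27 and -0.35 with humanFGF2, F2V2 and wtFGF2, over 43 genes.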
